A study of Mus musculus with 8 samples.

Results

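Podocyte genes were measured in injured mouse kidney as a set of 29 member genes. They were named by symbol, with earlier results of these data known, and found among the 42256 Ensembl genes of the count table. All 29 were matched to an identifier, all 29 passed the edgeR filter on low counts, and 15852 genes passed it in the whole table. The members had counts in every library, the lowest being 7 counts of Trpc6 in a single library. Kidney RNA came from 8 adult male mice whose strain is given as a mix of 129S1/Sv and C57BL/6, 4 labelled CDH11-/- and 4 labelled CDH11+/+ for the gene of cadherin-11, an adhesion protein of mesenchymal cells. Both groups had received aristolochic acid, a plant toxin of the proximal tubule, at 3 mg/kg on each of 5 days, and kidneys were taken 2 weeks after injections ended. Uninjured mice were not analysed here, the labels do not describe the targeted allele or the cells it acts in, and the series title names a different injury (Unx/AngII) from the one in the labels.

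Podocytes are the epithelial cells that wrap the capillaries of the glomerulus with interlocking foot processes. Adjacent foot processes are bridged by the slit diaphragm, a junction built around nephrin, which is anchored to an actin cytoskeleton and rests on a basement membrane shared with the endothelium. Mature podocytes have left the cell cycle, and their loss is a hallmark of glomerular scarring. They are a small fraction of whole kidney. In these bulk libraries more podocytes, more RNA per podocyte and a smaller share of RNA from other cells cannot be told apart.

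The libraries held 10675309 to 18539479 counts. Cdh11 itself, the targeted gene, was higher rather than lower under the CDH11-/- label, at 89.9, 91.3, 112.5 and 117.2 CPM (counts over the TMM-adjusted library total, per 1000000), against 75.6, 58.0, 61.7 and 59.0 CPM in those labelled CDH11+/+. Its fitted difference was 0.69 ± 0.11 (log2, SE, edgeR quasi-likelihood adjusted p = 0.0243), a call that held in 8 of 16 alternatives. In the authors' normalized values Cdh11 was at 1084, 1087, 1346 and 1372 in libraries labelled CDH11-/-, against 1367, 984.1, 812.1 and 979.1 in those labelled CDH11+/+, so that CDH11+/+ replicate 1 lay among the libraries of the other label. There the difference was 0.26 ± 0.15 (log2, SE, limma adjusted p = 0.524), and with the authors' factors as offsets it was 0.24 ± 0.15 (log2, SE, edgeR adjusted p = 0.544). Genotypes are therefore given as labelled, and every direction below is that of the libraries labelled CDH11-/- over those labelled CDH11+/+. CDH11+/+ replicate 1 stood apart from the other libraries of its label: without it, 1004 genes passed the threshold of an adjusted p under 0.05, against 114 with it.

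Sequences before the start sites are shown for the members whose libraries did not overlap between the labels, to set them beside the values below. Of the 29 members, 21 had an entry in the set of RefSeq promoters used here (build GRCm38.p6), which need not hold every RefSeq start. Of the 5 with separated groups Nphs1, Thsd7a, Robo2 and Cd2ap had one. For each, the 250 bases before the RefSeq start nearest to the GENCODE gene start are printed from 5′ to 3′ on the strand of the gene, and capitals mark CAGCTG, an E-box bound by bHLH factors such as TCF21. The Nphs1 stretch lies at chr7:30459808-30460057 (plus strand), that of Thsd7a at chr6:12749254-12749503, that of Robo2 at chr16:74411826-74412075 and that of Cd2ap at chr17:42876425-42876674 (minus strand for these 3). The Nphs1 window lies inside the annotated gene, because the RefSeq start it precedes is 1743 bases downstream of the GENCODE gene start, and the bases before that GENCODE start were not searched.
Nphs1: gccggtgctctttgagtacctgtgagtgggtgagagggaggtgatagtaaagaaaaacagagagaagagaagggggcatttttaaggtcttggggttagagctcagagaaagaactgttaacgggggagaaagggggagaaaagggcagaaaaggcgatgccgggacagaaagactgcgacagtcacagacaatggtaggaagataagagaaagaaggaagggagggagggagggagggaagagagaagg
Thsd7a: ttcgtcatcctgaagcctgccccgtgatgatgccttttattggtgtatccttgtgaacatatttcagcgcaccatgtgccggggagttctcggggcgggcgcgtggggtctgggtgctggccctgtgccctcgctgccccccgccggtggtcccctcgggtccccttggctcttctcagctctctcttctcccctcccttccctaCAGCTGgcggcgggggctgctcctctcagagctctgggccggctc
Robo2: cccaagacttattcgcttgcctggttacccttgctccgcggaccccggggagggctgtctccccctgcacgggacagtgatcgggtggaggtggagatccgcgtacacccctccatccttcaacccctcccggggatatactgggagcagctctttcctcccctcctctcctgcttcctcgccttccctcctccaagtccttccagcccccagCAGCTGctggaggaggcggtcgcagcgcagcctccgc
Cd2ap: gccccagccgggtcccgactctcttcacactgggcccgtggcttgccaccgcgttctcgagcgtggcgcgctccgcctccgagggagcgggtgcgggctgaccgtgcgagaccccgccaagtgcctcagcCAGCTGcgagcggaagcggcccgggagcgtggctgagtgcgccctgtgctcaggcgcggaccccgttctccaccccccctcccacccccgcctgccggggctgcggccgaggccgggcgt
CAGCTG, which reads the same on both strands, began 45 bases before the start in Thsd7a, 37 in Robo2 and 120 in Cd2ap, and was not in the Nphs1 window. It occurred in 5 of the 21 member windows and in 13% of 32851 windows of the same length over all starts in that set of promoters. The motif GCGGGGGCG, known for WT1 and EGR factors, was found on either strand in 1 of the 21 (Inf2) and in 2.57% of all windows. TAATTA, a core bound by LMX1B, and the TATA box TATAAA were in 0 of the 21 and in 4.84% and 12.4% of all windows. Members with and without CAGCTG lay on both sides of a fold change of 0, with Thsd7a and Robo2 above it and Cd2ap below.

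The comparison of the labels asked whether podocyte transcripts in the injured kidney differ between libraries labelled CDH11-/- and CDH11+/+. Most members were somewhat higher in the libraries labelled CDH11-/-, with 22 of 29 at a positive log2 fold change and a median of 0.13, where 47.8% of all genes tested were positive and their median was -0.01. In edgeR 0 of the 29 passed an adjusted p under 0.05, a threshold that 0.719% of all genes passed. At an unadjusted p under 0.05, 11 members were higher, among them nephrin (Nphs1), Cdkn1c, Sulf1 and Robo2, and 1 was lower, Cd2ap, where 6.62% of all genes were higher and 7.46% lower at that level. The labels did not overlap in 4 members that were higher (Nphs1, Wt1, Thsd7a and Robo2) and in 1 that was lower (Cd2ap), beside 3.59% and 3.74% of all genes (7.33% in either direction).

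With DESeq2 2 members passed as higher (Nphs1 and Cdkn1c), where 1.31% of genes did. With limma-voom 7 members passed as higher (Nphs1, Podxl, Synpo, Cdkn1c, Nes, Robo2 and Sulf1), where 2.13% did. In edgeR without CDH11+/+ replicate 1 the same 7 passed, with 3.08% of all genes, and no member passed without any other single library. The members were chosen with earlier results of these data known, so these counts describe the members and test nothing about the group.

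**Figure D1:**
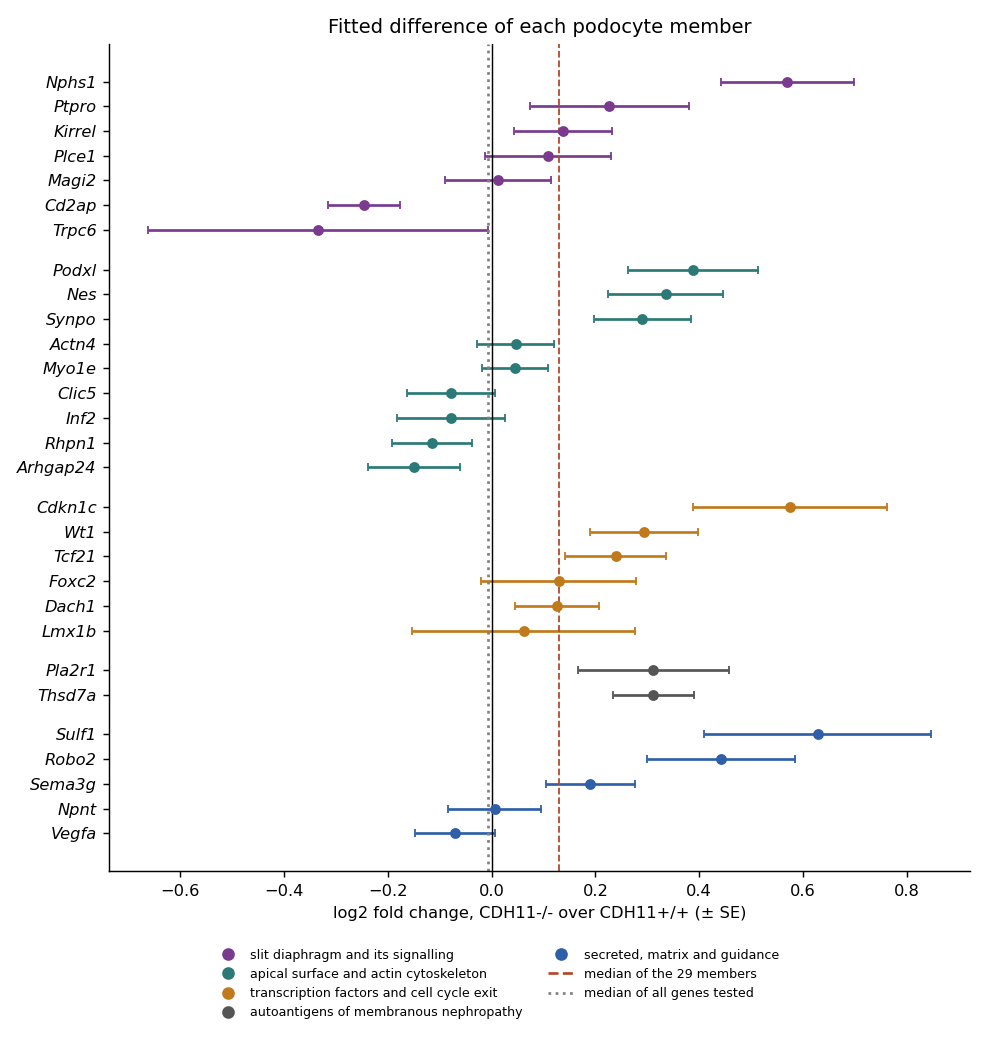
Fitted log2 fold change of each of the 29 podocyte members (horizontal axis, CDH11-/- over CDH11+/+, with SE), grouped by role. The dashed line is the members' median of 0.13 and the dotted line that of all genes tested, and points lie from -0.33 (Trpc6) to 0.63 (Sulf1).

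Of the 7 genes of the slit diaphragm and its signalling 5 had a positive fold change and 2 a negative one, and 0 passed in edgeR. The libraries labelled CDH11-/- lay all above the others for nephrin and all below them for the adaptor Cd2ap, and the labels overlapped in the other 5. Nphs1 (ENSMUSG00000006649, chromosome 7, 30458315 to 30487223 of GRCm38) encodes nephrin, the transmembrane protein that spans the slit. It was at 37.0, 28.1, 36.4 and 28.9 CPM in replicates 1 to 4 labelled CDH11-/-, against 23.2, 19.2, 26.3 and 19.4 CPM in those labelled CDH11+/+. All 4 libraries labelled CDH11-/- lay above the highest of the others, though replicate 2 at 28.1 CPM and CDH11+/+ replicate 3 at 26.3 CPM were close. Nephrin thus averaged 32.6 ± 4.75 CPM under the CDH11-/- label and 22.0 ± 3.38 CPM under the CDH11+/+ label (SD, n = 4 each). The fitted difference was 0.57 ± 0.13 (log2, SE, edgeR adjusted p = 0.0744, DESeq2 adjusted p = 0.00627). An annotated antisense gene, Nphs1os, overlaps its exons and was listed at 0 in all 8 libraries. Rps12-ps4, also on the other strand, overlaps its exons too, and no level of it is given here.

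Cd2ap, which links nephrin to actin and is also made in tubules, was the member with the lowest p among those of negative sign. It stood at 201.7, 192.7, 221.0 and 216.5 CPM in the libraries labelled CDH11-/-, against 268.8, 239.0, 233.9 and 245.0 CPM in those labelled CDH11+/+. The groups did not overlap, with the highest library labelled CDH11-/- at 221.0 CPM and the lowest labelled CDH11+/+ at 233.9 CPM. Its difference was -0.25 ± 0.07 (log2, SE, edgeR adjusted p = 0.142). Ptpro, a receptor tyrosine phosphatase of the apical foot process, averaged 31.2 ± 5.15 CPM in the libraries labelled CDH11-/- and 26.7 ± 4.94 CPM in those labelled CDH11+/+ (SD, n = 4 each). Kirrel, which encodes the nephrin partner NEPH1, averaged 54.9 ± 4.32 CPM in the libraries labelled CDH11-/- and 49.96 ± 6.60 CPM in those labelled CDH11+/+ (SD, n = 4 each). For Ptpro the gap was smaller than the SD within either label, and for Kirrel it was smaller than the SD of the libraries labelled CDH11+/+. The phospholipase gene Plce1 (0.11 ± 0.12), the scaffold gene Magi2 (0.01 ± 0.10) and the cation channel gene Trpc6 (-0.33 ± 0.33, log2, SE) had errors about as large as their differences or larger. Trpc6 rested on 7 to 15 counts a library.

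Members of the cell surface and the actin cytoskeleton fell into 2 sets, with Podxl, Nes and Synpo at 0.29 to 0.39 and the other 6 at -0.15 to 0.05 (log2). Podxl encodes podocalyxin, the charged sialomucin that keeps foot processes apart, and is also made by endothelium. It was at 296.8, 240.5, 287.7 and 236.8 CPM in replicates 1 to 4 labelled CDH11-/-, against 238.3, 166.0, 225.6 and 181.9 CPM in those labelled CDH11+/+. Replicate 4 labelled CDH11-/- lay just under replicate 1 labelled CDH11+/+, and the difference was 0.39 ± 0.12 (log2, SE, edgeR adjusted p = 0.207). Synpo encodes synaptopodin, an actin-bundling partner of alpha-actinin-4. It had 148.7, 126.1, 152.2 and 132.5 CPM in libraries labelled CDH11-/-, against 134.2, 100.4, 114.1 and 109.1 CPM in libraries labelled CDH11+/+. Here too only CDH11+/+ replicate 1 reached into the range of the other label (0.29 ± 0.09, log2, SE, edgeR adjusted p = 0.196).

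Nes encodes nestin, an intermediate filament protein of podocytes that is also found in vessels. Its levels were 216.1, 180.0, 213.9 and 210.3 CPM in the libraries labelled CDH11-/-, against 204.6, 147.5, 146.5 and 152.0 CPM in those labelled CDH11+/+. CDH11+/+ replicate 1 was at the level of the other label, while the remaining 3 lay below every library labelled CDH11-/- (0.34 ± 0.11, log2, SE, edgeR adjusted p = 0.216). The crosslinker alpha-actinin-4 (Actn4, 0.05 ± 0.07), the motor Myo1e (0.05 ± 0.06), the formin Inf2 (-0.08 ± 0.10), the chloride intracellular channel protein Clic5 (-0.08 ± 0.09), the rhophilin Rhpn1 (-0.12 ± 0.08) and the Rac-inactivating protein Arhgap24 (-0.15 ± 0.09, log2, SE) did not pass (edgeR adjusted p = 0.48 to 0.829). Several of these are made by tubule and interstitial cells as well as podocytes. Per kilobase of exon, Actn4 was the most abundant member at 70.5 CPM per kilobase in libraries labelled CDH11-/- and 68.3 under the CDH11+/+ label.

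**Figure D2:**
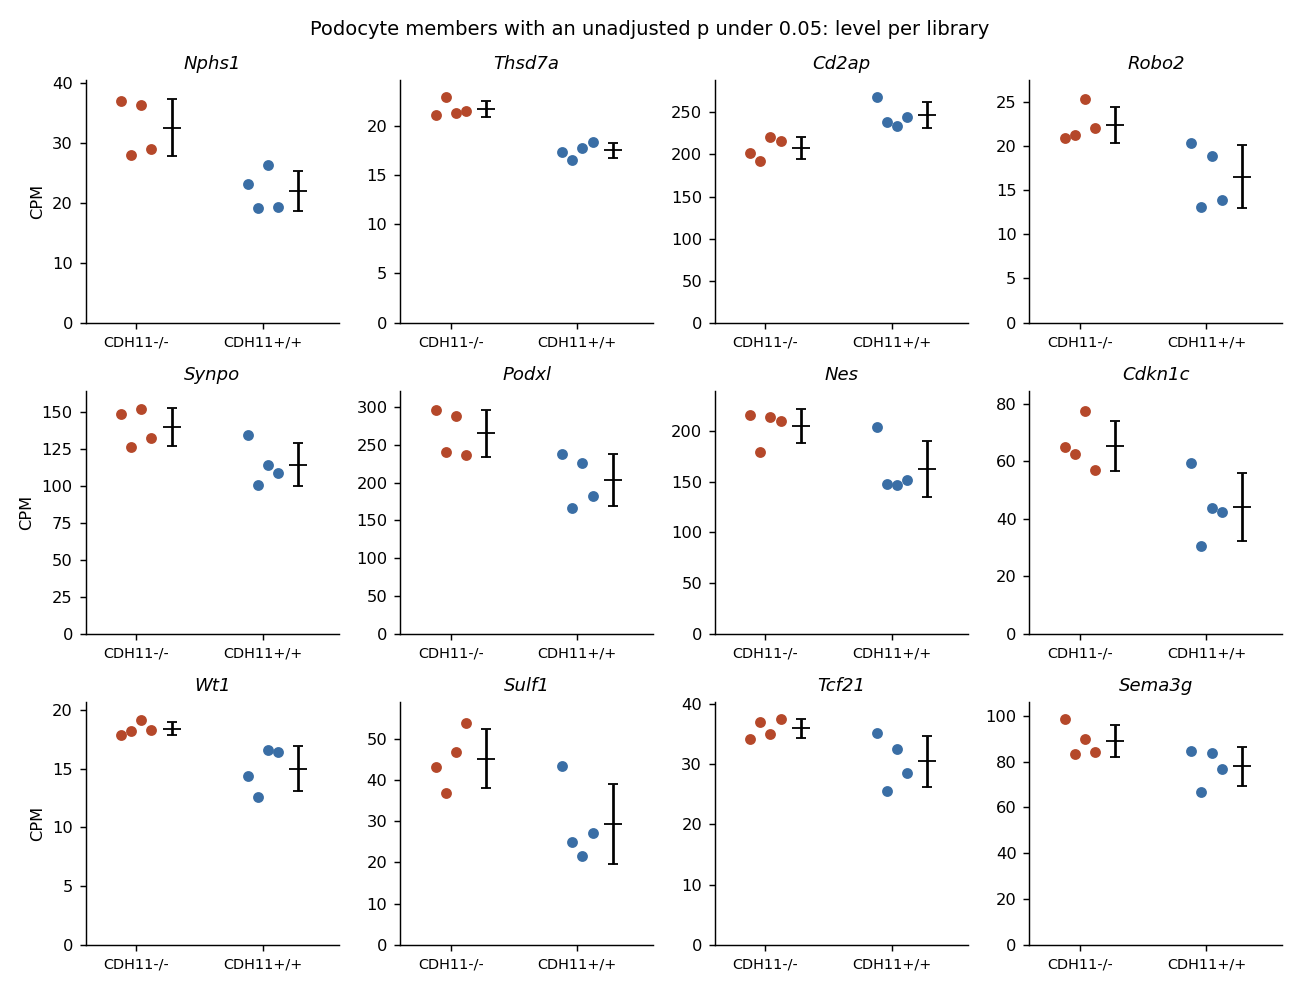
Level in CPM (vertical axes, from 0) of the 12 members with an unadjusted p under 0.05 in each library labelled CDH11-/- (left, red) and CDH11+/+ (right, blue), with the mean and SD of 4 libraries beside the points. Nphs1, Thsd7a, Robo2 and Wt1 are higher and Cd2ap is lower with no overlap between the labels, while the other 7 overlap.

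Transcription factors of the podocyte and the cell cycle inhibitor Cdkn1c were all on the positive side, 6 of 6, from 0.06 (Lmx1b) to 0.57 (Cdkn1c). Wt1, which drives the podocyte program, was at 17.9, 18.2, 19.2 and 18.3 CPM in libraries labelled CDH11-/-, against 14.4, 12.5, 16.6 and 16.4 CPM in libraries labelled CDH11+/+. The groups did not overlap, and the libraries labelled CDH11-/- were the tighter group, at 18.4 ± 0.553 CPM beside 14.99 ± 1.92 CPM in those labelled CDH11+/+ (SD, n = 4 each). Its difference was 0.29 ± 0.10 (log2, SE, edgeR adjusted p = 0.238). Cdkn1c encodes p57, which holds podocytes out of the cell cycle.

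Cdkn1c levels were 64.8, 62.5, 77.4 and 56.9 CPM in the libraries labelled CDH11-/-, against 59.5, 30.5, 43.9 and 42.4 CPM in those labelled CDH11+/+. CDH11+/+ replicate 1 lay inside the range of the other label, and replicate 2 was far below it (0.57 ± 0.19, log2, SE, edgeR adjusted p = 0.232, DESeq2 adjusted p = 0.0411). Tcf21, a bHLH factor of podocytes and of interstitial fibroblasts, had 34.3, 37.0, 35.1 and 37.4 CPM in libraries labelled CDH11-/-, against 35.3, 25.5, 32.5 and 28.6 CPM in libraries labelled CDH11+/+. For Tcf21, too, CDH11+/+ replicate 1 sat among the libraries of the other label (0.24 ± 0.10, log2, SE, edgeR adjusted p = 0.299). Dach1 (0.13 ± 0.08), Foxc2 (0.13 ± 0.15) and Lmx1b (0.06 ± 0.22, log2, SE), factors needed for podocyte identity, did not pass (edgeR adjusted p = 0.527 to 0.928). Lmx1b was low, with 0.735 CPM per kilobase of exon in libraries labelled CDH11-/- and 0.706 under the CDH11+/+ label, and its sign changed in 6 of 16 alternatives.

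Both genes whose products are autoantigens of human membranous nephropathy had a fold change of 0.31 (log2), and neither passed. Thsd7a, which encodes a large membrane protein of the foot process, was at 21.2, 23.0, 21.4 and 21.5 CPM in libraries labelled CDH11-/-, against 17.4, 16.6, 17.8 and 18.4 CPM in libraries labelled CDH11+/+. Each library labelled CDH11-/- lay above all 4 others, and spread within a label was small, with an SD of 0.846 CPM under the CDH11-/- label and 0.786 CPM under the CDH11+/+ label (n = 4 each). The fitted difference was 0.31 ± 0.08 (log2, SE, edgeR adjusted p = 0.106, with a range of 0.0534 to 0.292 in the 16 alternatives). Pla2r1, the gene of the phospholipase A2 receptor, averaged 16.2 ± 2.04 CPM in libraries labelled CDH11-/- and 13.1 ± 2.48 CPM in those labelled CDH11+/+ (SD, n = 4 each). These overlapped, with CDH11+/+ replicate 1 at 16.2 CPM, and the difference was 0.31 ± 0.15 (log2, SE, edgeR adjusted p = 0.361).

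Of the 5 members that act outside the cell or guide it 4 had a positive fold change and 0 passed in edgeR, with Robo2, Sulf1 and Sema3g at 0.19 to 0.63 and the abundant Npnt and Vegfa at 0.01 and -0.07 (log2). Robo2, a receptor for Slit guidance proteins, was at 20.9, 21.3, 25.3 and 22.0 CPM in libraries labelled CDH11-/-, against 20.4, 13.1, 18.8 and 13.9 CPM in libraries labelled CDH11+/+. The gap between the groups was narrow, with CDH11-/- replicate 1 at 20.9 CPM and CDH11+/+ replicate 1 at 20.4 CPM (0.44 ± 0.14, log2, SE, edgeR adjusted p = 0.196). Sulf1, an extracellular sulfatase of heparan sulfate also made by mesenchymal cells, showed the largest fold change of the members.

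Sulf1 levels were 43.1, 36.7, 46.7 and 53.9 CPM in libraries labelled CDH11-/-, against 43.4, 25.0, 21.5 and 27.1 CPM in libraries labelled CDH11+/+. CDH11+/+ replicate 1 was above CDH11-/- replicates 1 and 2, and the other 3 were below every library labelled CDH11-/- (0.63 ± 0.22, log2, SE, edgeR adjusted p = 0.257, and 0.89 with adjusted p = 0.00583 without that library). Sema3g, a secreted semaphorin, had 98.5, 83.5, 89.7 and 84.1 CPM in libraries labelled CDH11-/-, against 84.8, 66.6, 83.9 and 76.6 CPM in libraries labelled CDH11+/+. CDH11+/+ replicates 1 and 3 lay above CDH11-/- replicate 2, so the groups overlapped (0.19 ± 0.09, log2, SE, edgeR adjusted p = 0.347). Npnt, the gene of the basement membrane ligand nephronectin, averaged 274.0 ± 24.1 CPM in libraries labelled CDH11-/- and 272.9 ± 29.1 CPM in libraries labelled CDH11+/+ (SD, n = 4 each), a difference of 0.01 ± 0.09 (log2, SE). Vegfa, the growth factor by which podocytes maintain the glomerular endothelium and which tubules also make, averaged 159.2 ± 11.6 CPM under the CDH11-/- label and 167.2 ± 14.5 CPM under the CDH11+/+ label (SD, n = 4 each; -0.07 ± 0.08, log2, SE, edgeR adjusted p = 0.733).

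Some members are also known from other kidney cells. For 13 such members (Podxl, Clic5, Npnt, Tcf21, Dach1, Cd2ap, Nes, Actn4, Inf2, Myo1e, Sema3g, Sulf1 and Vegfa) the median log2 fold change was 0.05 with 9 positive, and for the remaining 16 it was 0.18 with 13 positive. This split was made from general knowledge of where the genes are expressed, and the difference between these medians was not tested. It does not show that the remaining 16 are made by podocytes alone.

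Library by library, the members were lowest in CDH11+/+ replicate 2, which held the minimum of 14 of the 29 members, while CDH11-/- replicate 3 held the maximum of 10. The median deviation of a member from its own mean over the 8 libraries (log2 CPM, prior count 2) was 0.11, 0.0019, 0.13 and 0.02 in replicates 1 to 4 labelled CDH11-/-, against 0.09, -0.24, -0.02 and -0.08 in those labelled CDH11+/+. These medians overlapped between the labels, because CDH11+/+ replicate 1 was above CDH11-/- replicates 2 and 4. Without CDH11+/+ replicate 2 the median fold change of the members was 0.08 and 9 members had an unadjusted p under 0.05, beside 12 with all libraries. With all libraries 14.1% of all genes were at that level in either direction, and the share without that library was not counted.

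**Figure D3:**
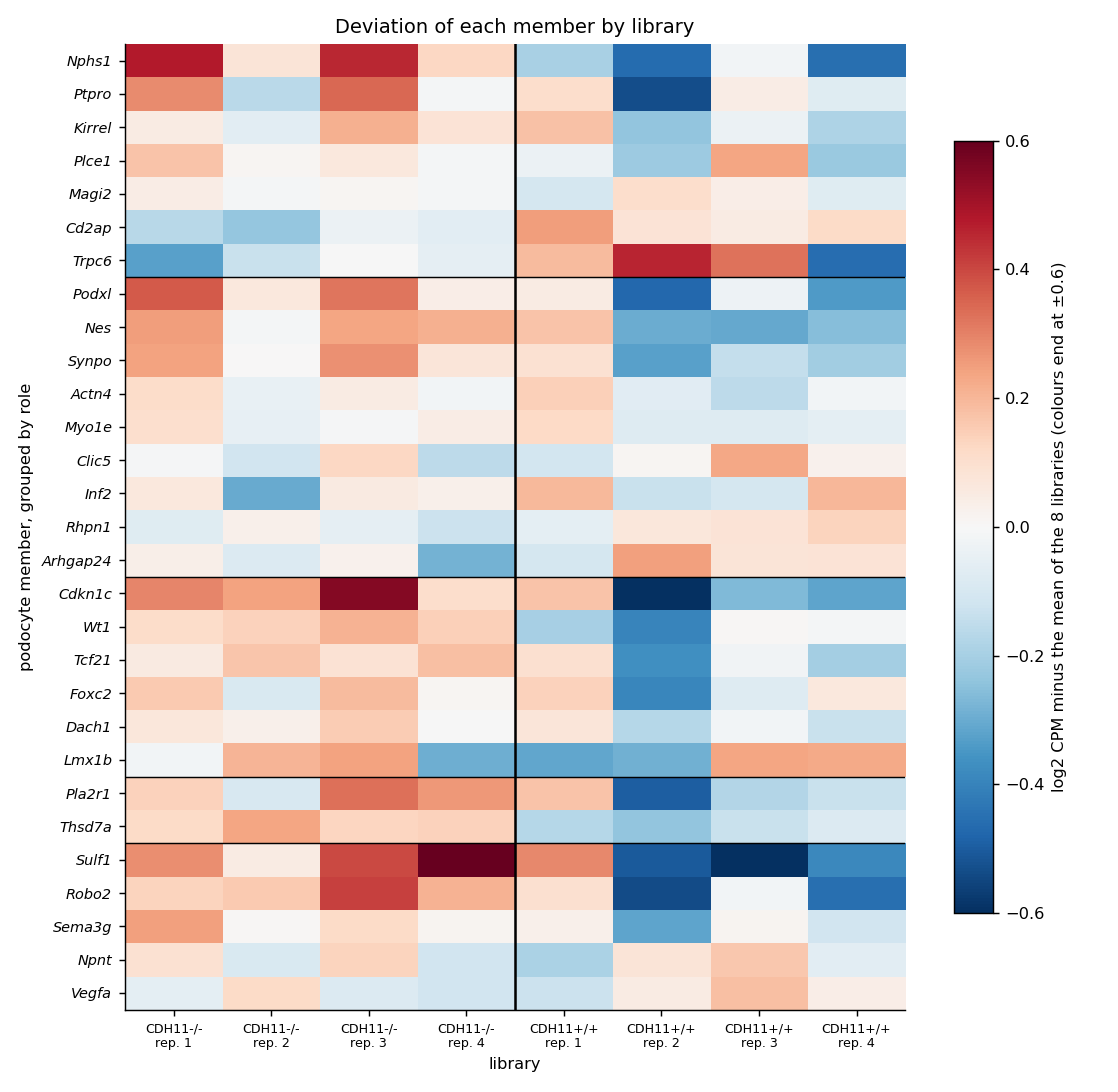
Log2 CPM of each member (rows, grouped by role) minus its mean over the 8 libraries (columns, CDH11-/- left and CDH11+/+ right), from blue below the mean to red above, with colours ending at 0.6 either way. CDH11+/+ replicate 2 is below the mean for Nphs1, Podxl, Cdkn1c, Robo2 and Sulf1, and CDH11-/- replicate 3 is above it for the same 5.

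Other podocyte genes that were not members were mostly positive, and none passed. Of 22 listed, 21 were tested (Kirrel2 was too low), 17 were positive with a median log2 fold change of 0.17, and 0 passed in edgeR (9 were higher and 1 lower at an unadjusted p under 0.05). Kirrel3, of the nephrin-binding family, had 0.69 ± 0.20 (log2, SE, edgeR adjusted p = 0.151). Crb2, a polarity protein of the slit diaphragm, was at 5.91, 5.11, 5.12 and 4.85 CPM in libraries labelled CDH11-/-, against 3.88, 2.13, 4.04 and 3.24 CPM in libraries labelled CDH11+/+, with no overlap (0.66 ± 0.21, log2, SE, edgeR adjusted p = 0.19). Of 13 basement membrane genes and their receptors 11 were positive (median 0.17) and 0 passed in edgeR, with 5 higher and 0 lower at an unadjusted p under 0.05. Perlecan, Hspg2, was at 0.24 ± 0.07 and laminin beta-2, Lamb2, at 0.23 ± 0.07 (log2, SE, edgeR adjusted p = 0.14 and 0.183).

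Lists for the neighbouring glomerular and vascular cells had positive medians, with negative genes among the mesangial and parietal ones. All 12 endothelial genes were positive with a median of 0.32 (log2), beside 0.13 for the podocyte members; 0 passed in edgeR and 8 were higher at an unadjusted p under 0.05, led by the VEGF receptors Flt1 (0.42 ± 0.08) and Kdr (0.43 ± 0.09, log2, SE, edgeR adjusted p = 0.0508 and 0.054). Their summed level was 896.9 to 961.2 CPM in libraries labelled CDH11-/- and 703.1 to 927.6 CPM in those labelled CDH11+/+. Of 10 mesangial and pericyte genes 6 were positive and 4 negative (median 0.19), 0 passed in edgeR and 4 were higher at an unadjusted p under 0.05, with Rgs5 at 0.29 ± 0.07 and Serpine2 at 0.32 ± 0.08 (log2, SE, edgeR adjusted p = 0.0773 and 0.116), and the list summed to 667.0 to 775.3 CPM in libraries labelled CDH11-/- and 586.5 to 687.6 CPM in those labelled CDH11+/+. Of 7 genes listed for parietal epithelium 5 were positive and 2 negative (median 0.11), and Akap12, a kinase-anchoring protein, rose by 0.55 ± 0.10 (log2, SE, edgeR adjusted p = 0.0306). Its call was lost without any 1 of 6 of the 8 libraries, CDH11-/- replicate 2 and CDH11+/+ replicate 1 being the exceptions, and in limma on the normalized values or edgeR with the authors' factors as offsets; over 16 alternatives its edgeR, DESeq2 or limma adjusted p ran between 3.53e-05 and 0.123 and its difference between 0.48 and 0.65 (log2). Dkk3 followed at 0.37 ± 0.09 (log2, SE, edgeR adjusted p = 0.0845), and the list summed to 1353 to 1503 CPM in libraries labelled CDH11-/- and 1131 to 1470 CPM in those labelled CDH11+/+. Bulk libraries do not show which cells made the transcripts of these lists, Akap12 among them.

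All 12 listed proximal tubule genes were negative (median -0.77, log2), led by Slc13a3 (-1.51 ± 0.25) and Slc22a8 (-2.31 ± 0.40, log2, SE, edgeR adjusted p = 0.0528 and 0.0621), and 0 passed in edgeR (9 at an unadjusted p under 0.05). The list summed to 2095 to 5648 CPM in libraries labelled CDH11-/- and 2419 to 7333 CPM in libraries labelled CDH11+/+, and CDH11+/+ replicate 1, at 2419 CPM, was the lowest of its label. Thick ascending limb and distal tubule genes had a median of -0.27 with 1 of 6 positive, led by Slc12a3 (-0.50 ± 0.21) and Calb1 (-0.39 ± 0.26, log2, SE), and collecting duct genes a median of -0.11 with 1 of 6 positive, led by Aqp2 (-0.22 ± 0.10) and Aqp3 (-0.15 ± 0.09, log2, SE). All 8 macrophage genes were positive with a median of 0.12, led by Csf1r (0.18 ± 0.11) and Mrc1 (0.36 ± 0.20, log2, SE), with edgeR adjusted p of 0.332 or more in these 3 lists. What part the share of tubule RNA in a library had in the podocyte values was not tested.

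**Figure D4:**
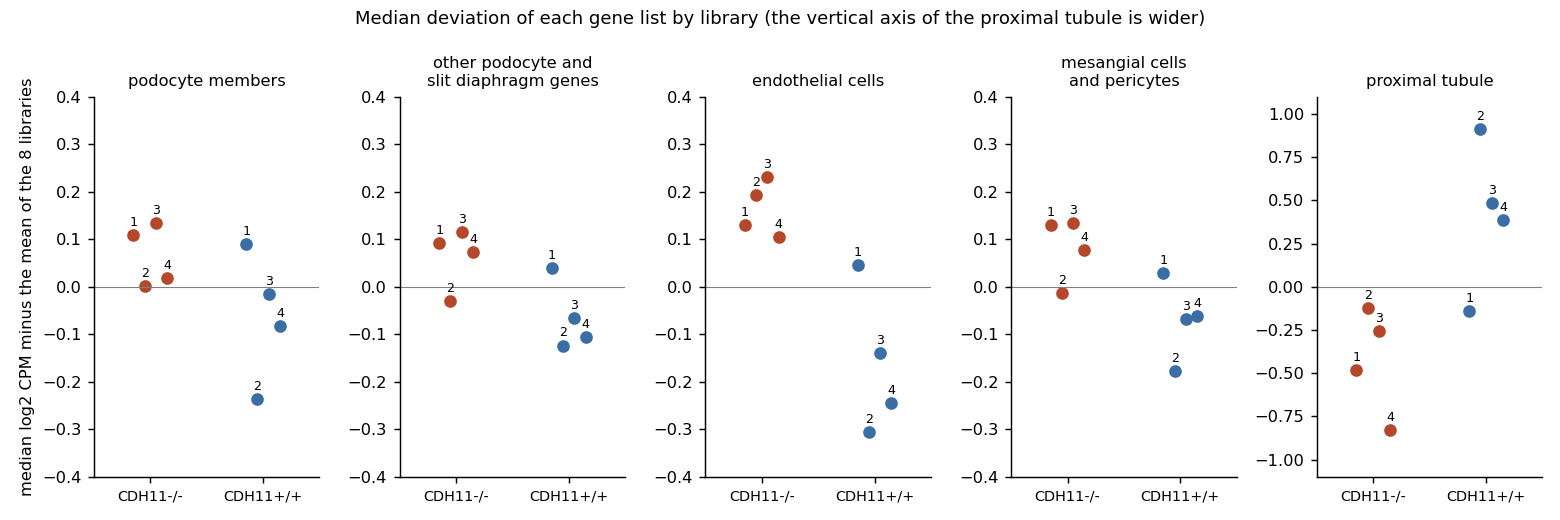
Median over each gene list of log2 CPM minus the mean of the 8 libraries (vertical axes, wider for the proximal tubule), by library labelled CDH11-/- (left, red) and CDH11+/+ (right, blue), with replicate numbers. CDH11+/+ replicate 2 is lowest for podocyte, endothelial and mesangial genes and highest for the proximal tubule, and CDH11+/+ replicate 1 lies within the range of the libraries labelled CDH11-/- in each panel except the endothelial, where it is below them.

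Set against the endothelium of the same library, the members were not higher in the libraries labelled CDH11-/-. Their median deviation minus that of the endothelial genes was -0.02, -0.19, -0.10 and -0.09 (log2) in replicates 1 to 4 labelled CDH11-/-, against 0.05, 0.07, 0.12 and 0.16 in those labelled CDH11+/+. Over all 29 members the 4 values labelled CDH11-/- were below the others, and since both lists were chosen with results known, no test is given. For the 16 members not noted in other kidney cells the labels overlapped. Their median deviation was 0.1236 beside an endothelial 0.1299 in CDH11-/- replicate 1, and 0.0278 beside 0.0452 in CDH11+/+ replicate 1. The endothelial list had the highest median fold change of the lists shown, so a list set against it tends to come out lower under the CDH11-/- label. Mesangial and pericyte genes had median deviations of 0.13, -0.01, 0.13 and 0.08 under the CDH11-/- label, against 0.03, -0.18, -0.07 and -0.06 under the CDH11+/+ label. Under each label the members were above that list in some libraries and below it in others.

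The authors' normalized values divide each count by a factor that differs between genes, and they moved several members. With limma on log2 of those values plus 1, 21 of the 29 members stayed within 0.1 log2 units of the fold change from counts and 8 did not. In this fit 0 members passed, beside 54 of all 15852 genes, and 13 had an unadjusted p under 0.05. The share of all genes at that unadjusted level was not counted for this fit. Thsd7a had 0.61 in place of 0.31, Pla2r1 0.64 in place of 0.31 and Robo2 0.62 in place of 0.44, while Nphs1 had 0.47 in place of 0.57 (limma adjusted p = 0.262 to 0.327 for these 4). Magi2 changed sign, at -0.36 in place of 0.01, and so did Lmx1b, at -0.16 in place of 0.06 (log2).

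Separation of the labels depended on the table as well. Nephrin in normalized values was 423.8, 436.6, 389.2 and 486.8 in libraries labelled CDH11-/-, against 264.2, 310.8, 444.0 and 260.6 in those labelled CDH11+/+, so CDH11+/+ replicate 3 lay among the libraries of the other label. In these values 2 members were higher without overlap (Wt1 and Cdkn1c) and 1 was lower (Cd2ap), so that Wt1 and Cd2ap were separated in both tables. The share of all genes separated in the normalized values was not counted, so these counts have no background beside them. Cd2ap was at 2903, 2669, 3059 and 2894 in libraries labelled CDH11-/-, against 3722, 3343, 3227 and 3348 in libraries labelled CDH11+/+.

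**Figure D5:**
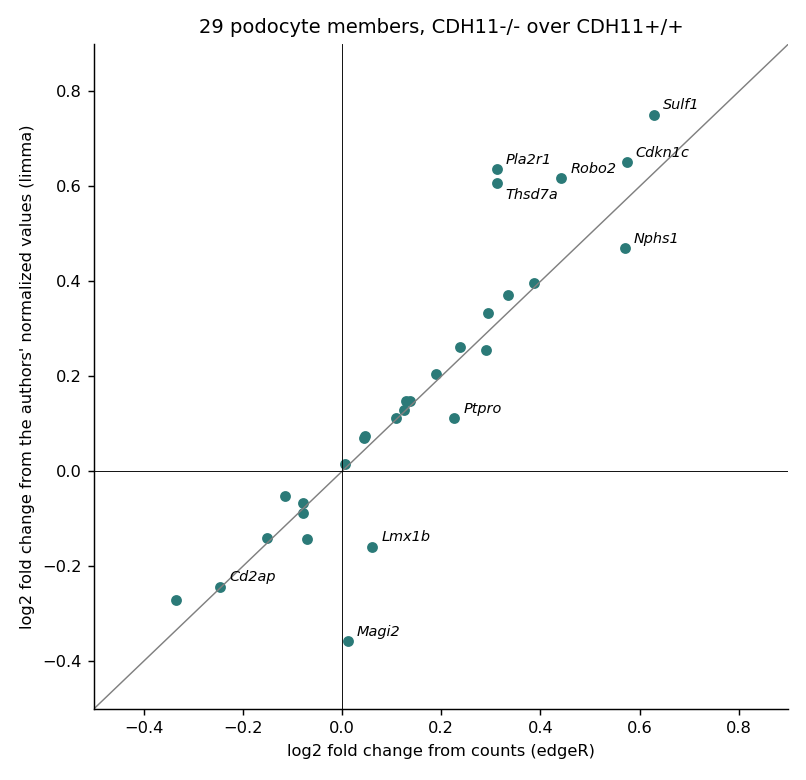
Log2 fold change of the 29 members from the deposited counts (horizontal axis, edgeR) and from the authors' normalized values (vertical axis, limma with a pseudocount of 1), each CDH11-/- over CDH11+/+, with a line of equality. Thsd7a, Pla2r1 and Robo2 lie above the line, and Magi2, Lmx1b, Ptpro and Nphs1 below it.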

How the data were processed

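RNA of 8 kidneys was counted per gene. The authors deposited counts as whole numbers per Ensembl gene, and a second deposited table of normalized values, a signal equal to the count over a factor that differs between genes and libraries. The submitters' processing notes name mm10, DRAGEN and DESeq2. Versions, annotation and use of strand in counting were not stated there. Exons of 5 members overlap another annotated gene. Names, coordinates and exon lengths came from GENCODE M21 (GRCm38, the assembly of mm10), and 0 of the 42256 identifiers were without a name. There were 0 columns of other samples.

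Counts were tested with edgeR 4.0.16 (R 4.3.3): TMM, the default filter, robust quasi-likelihood, genotype as the only term, and Benjamini-Hochberg adjustment over all 15852 genes at 0.05. SE is the absolute log2 fold change over the square root of F. Total counts had a two-sided exact permutation test (p = 0.0857), with a smallest p of 0.0286 for 4 against 4. Summed levels of the other lists had the same test. Because those lists were chosen with results known, its p-values are not given for them. The common biological coefficient of variation was 13.5%, so counting error dominates only in low genes such as Trpc6. Labels give no litter, batch or separate cultures. The p-values set the difference between the labels against the spread between these mice. A litter or batch difference that followed the labels cannot be told apart from genotype. Alternatives were other scalings, no filter, DESeq2 1.42.0, limma-voom (limma 3.58.1), limma on normalized values with pseudocounts of 1 and 0.1, the authors' factors as offsets, and leaving out each library. Scripts were tested on simulated data.

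All 29 members, Cdh11, and in each other list the 2 genes of smallest p and any past the threshold were named. Members and lists were chosen with earlier results of these data known, and the promoter motifs and the list of members singled out for sequence were chosen after values were seen. The members were not tested as a set.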

Additional observations from a re-analysis of the deposited data

Results flagged for a closer look

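Of 58 groups of 4 libraries (29 members under 2 labels), 4 held a library far from the other 3 by Dixon's criterion, where chance flags about 5% of groups. Nes was at 180.0 CPM in CDH11-/- replicate 2, with the other libraries of that label at 210.3 CPM or more. Nes was also at 204.6 CPM in CDH11+/+ replicate 1, with the others of that label at 152.0 CPM or less. Inf2 was at 71.1 CPM in CDH11-/- replicate 2, with the others of that label at 89.5 CPM or more. Myo1e was at 98.9 CPM in CDH11+/+ replicate 1, with the others of that label at 87.4 CPM or less. Both values in CDH11+/+ replicate 1 are high ones, and both in CDH11-/- replicate 2 are low ones.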

How the results depend on the processing

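Under 16 alternatives, 25 of the 29 members kept the sign of their fold change and 7 passed the threshold in at least 1 alternative, each as higher. The shares of all genes that did so over the 16 were not counted, so the 25 and the 7 have no background beside them. The count of all genes past the threshold, 114, was 208 with no filter, 515 with DESeq2, 679 with limma-voom, 54 with limma on normalized values at either pseudocount and 50 with the authors' factors as offsets, and 26 to 1004 without one library. The count of members past it, 0, was 1 with no filter (Nphs1), 2 with DESeq2, 7 with limma-voom and 0 to 7 without one library; the cause was not tested. The members' median stayed between 0.08 and 0.21 in all 16. Magi2 reversed to -0.36 with limma on normalized values at either pseudocount, to -0.33 with the authors' factors, and lay between -0.011 and 0.052 without one library. Lmx1b reversed to -0.16 at either pseudocount and to -0.26 with the authors' factors, and lay between -0.027 and 0.17 without one library. Npnt lay between -0.043 and 0.062 and Inf2 between -0.13 and 0.0021 without one library. No paired analysis was possible because the labels give no replicate numbers that the groups share. The replicate numbers used here follow the order of the libraries within each label and pair nothing. Depth limits Trpc6, whose SE is nearly as large as its difference. The alternatives for Akap12 were added after seeing the data; it passed in 7 of 16.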
